A study of Mus musculus with 4 samples.

Results

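The immediate early genes examined here are Jun, Junb, Jund, Fos, Fosb, Egr1, Atf3, Ier2, Dusp1 and Klf4, a list of 10 genes of the AP-1 family and of the acute stress response. They were taken by name: every probe set whose platform annotation names 1 of these genes and no other was a member, which gave 13 probe sets for the 10 genes out of 45037 non-control probe sets on the array. Transcript levels came from heart ventricles of mouse embryos at embryonic day 17.5, in a cross of C57BL/6 and SV129, on 4 Affymetrix MOE430v2 arrays. The KO group was 2 arrays of embryos lacking HDAC2, a class I histone deacetylase, each array from a pool of 3 animals. The WT group was 2 arrays of wild-type littermates, each from a pool of 2 animals. Since both KO samples are also marked wt in 1 label, the groups rest on the sample titles and on the Hdac2 signal given below. Beyond the word littermates, the labels do not say which pools shared a litter or a dissection day, nor how or in which cells the gene was deleted, and the p-values therefore speak to the variation among these 4 pools, part of which may be technical.

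Immediate early genes are transcribed within minutes of a stimulus, without new protein synthesis, when MAP kinases activate factors already bound at their promoters. Jun, Junb and Jund pair with Fos or Fosb, or with each other, to form AP-1, a leucine-zipper transcription factor, and Atf3 is a related zipper protein that stress induces. Egr1 and Klf4 are zinc-finger transcription factors, Ier2 is a small nuclear protein, and Dusp1 is a phosphatase that switches MAP kinases off again. Because cutting and handling of tissue can itself induce these genes, the gap between 2 pools of the same genotype is given beside each difference between genotypes.

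Start-site windows from RefSeq (build GRCm38.p6, 250 bases before to 50 bases after the start) were matched for 8 of the 10 genes, and those of Fos, Jun and Dusp1 are printed to show where strings searched for in such promoters lie in them (for Fos and Jun as the founding AP-1 genes, for Dusp1 for its number of matches). Capitals mark matches, on either strand, to TGACGTCA (the cyclic AMP element), TGACGT (its first 6 bases, which also lie within every TGACGTCA), TGACATCA (the variant through which AP-1 binds the Jun promoter), TGACTCA (the AP-1 site), TATAAA and the CArG box bound by serum response factor.
Fos, chr12:85473640-85473939, plus strand: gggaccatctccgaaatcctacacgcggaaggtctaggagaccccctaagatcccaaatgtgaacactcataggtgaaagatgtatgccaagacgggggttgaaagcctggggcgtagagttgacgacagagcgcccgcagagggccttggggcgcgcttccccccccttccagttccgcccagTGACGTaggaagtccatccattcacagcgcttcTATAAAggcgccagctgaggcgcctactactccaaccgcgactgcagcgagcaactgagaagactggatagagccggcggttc
Jun, chr4:95052173-95052472, minus strand: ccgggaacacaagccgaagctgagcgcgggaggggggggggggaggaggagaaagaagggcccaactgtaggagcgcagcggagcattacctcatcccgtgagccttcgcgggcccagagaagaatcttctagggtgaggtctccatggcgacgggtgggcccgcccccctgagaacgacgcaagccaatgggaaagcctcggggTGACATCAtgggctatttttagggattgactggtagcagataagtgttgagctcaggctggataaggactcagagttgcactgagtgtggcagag
Dusp1, chr17:26508423-26508722, minus strand: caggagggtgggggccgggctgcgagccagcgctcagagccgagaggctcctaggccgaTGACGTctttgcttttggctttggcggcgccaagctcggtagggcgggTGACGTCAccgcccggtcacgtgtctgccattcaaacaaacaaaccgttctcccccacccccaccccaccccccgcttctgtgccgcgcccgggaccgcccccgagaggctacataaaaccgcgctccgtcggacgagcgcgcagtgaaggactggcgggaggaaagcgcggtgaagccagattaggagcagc
The Fos window held TGACGT from 66 bases before the start and TATAAA from 33 bases before it. The Jun window held TGACATCA from 45 bases before the start. The Dusp1 window held TGACGTCA from 143 bases before the start and a separate TGACGT from 191 bases before it. Across the 27025 genes with a window, 1.88% held TGACGTCA, 7.64% TGACGT, 3.76% TGACATCA and 14.2% TATAAA. No window of the 8 genes held TGACTCA or a CArG box, which 5.17% and 1.57% of all windows held, and these matches describe letters only. Sites further than 250 bases before the start were not searched, so these genes may hold such sites there. Ier2 and Egr1 had no window.

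The arrays were alike in depth of detection, and MAS5 called 43.1% and 43.7% of the probe sets Present in KO, against 43.1% and 42.4% in WT. Hdac2 had no Present call on either KO array at any of its 3 probe sets, and read 31.4 and 21.0 in KO against 1189 and 1421 in WT at 1445684_s_at. Marker genes of other cell types were counted at the brightest probe set tested of each. Those of skeletal muscle passed the test as lower in KO at 9 of 11, with summed signals of 1199 and 1180 in KO and 13001 and 12168 in WT. At these probe sets Mylpf, Tnnt3, Tnnc2, Myh1 and Neb were Absent on both KO arrays. Myod1 and Myog were Absent on all 4 arrays and not tested. Markers of bone and cartilage passed as lower at 3 of 5 (Mmp13, Dmp1 and Ibsp, each Absent on both KO arrays), with sums of 120.7 and 140.1 in KO and 337.1 and 349.2 in WT. Among 8 fibroblast markers Col1a1 and Col1a2 passed as lower, with sums of 15214 and 16366 in KO and 17999 and 18217 in WT. The list as a whole was split, with 4 positive and 4 negative log2 differences of KO minus WT and a median of -0.049. Pdgfra stood at 0.52 and did not pass. Among 3 erythroid markers Hbb-y passed as higher at low signals, 58.8 and 57.3 in KO and 22.6 and 11.8 in WT at 1436717_x_at. Its 1436823_x_at also passed as higher, but 1450621_a_at was Absent on all 4 arrays. The sums of the 3 were 600.2 and 613 in KO and 522.7 and 430.2 in WT, mostly from Alas2, which did not pass. Of 8 endothelial and 5 macrophage markers 0 passed in limma, with 1 of each at unadjusted p under 0.05. Xist, the RNA of the inactive X chromosome, read 548 and 794 in KO and 80.5 and 90.1 in WT at 1436936_s_at. The sex of the embryos in each pool is not given here. A difference in sex between the pools cannot be told apart from genotype in any KO minus WT value, and its part was not tested. The ratio of the 3' to the 5' control probe set of actin, which rises as RNA is shortened, stood at 2.75 and 2.42 in KO and 1.85 and 2.32 in WT. At its brightest probe set none of the 10 cardiomyocyte markers passed in limma or had an unadjusted p under 0.05, with summed signals of 111334 and 118384 in KO and 116312 and 114133 in WT, but dimmer probe sets of Myh6 (1417729_at, -1.45) and Tnnt2 (1440424_at, -0.48) passed as lower in KO. In bulk tissue, fewer cells of a type and less RNA per cell cannot be told apart, and the part of these differences in the values below was not tested.

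No immediate early gene passed the test between genotypes. The test took probe sets that MAS5 had called Present on both KO arrays or on both WT arrays, which left 8 probe sets of 7 members among the 19065 tested on the whole array. In limma, with Benjamini-Hochberg adjustment over those 19065, 0 of the 7 members passed an adjusted p of 0.05, where 1.34% of all tested probe sets did. At unadjusted p under 0.05 there were 2 of the 8 probe sets, 1 of Jund and 1 of Jun, against 15.5% of all tested. By the brightest tested probe set, 3 members had a positive and 4 a negative difference of KO minus WT, with a median of -0.11 on the log2 scale, against 0.035 for all 10184 genes tested. Over the 8 tested probe sets 4 differences were positive and 4 negative, with a median of 0.095, against 0.014 for all 19065. The sign of the members' median thus depends on whether the second Jun probe set is counted.

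**Figure D1:**
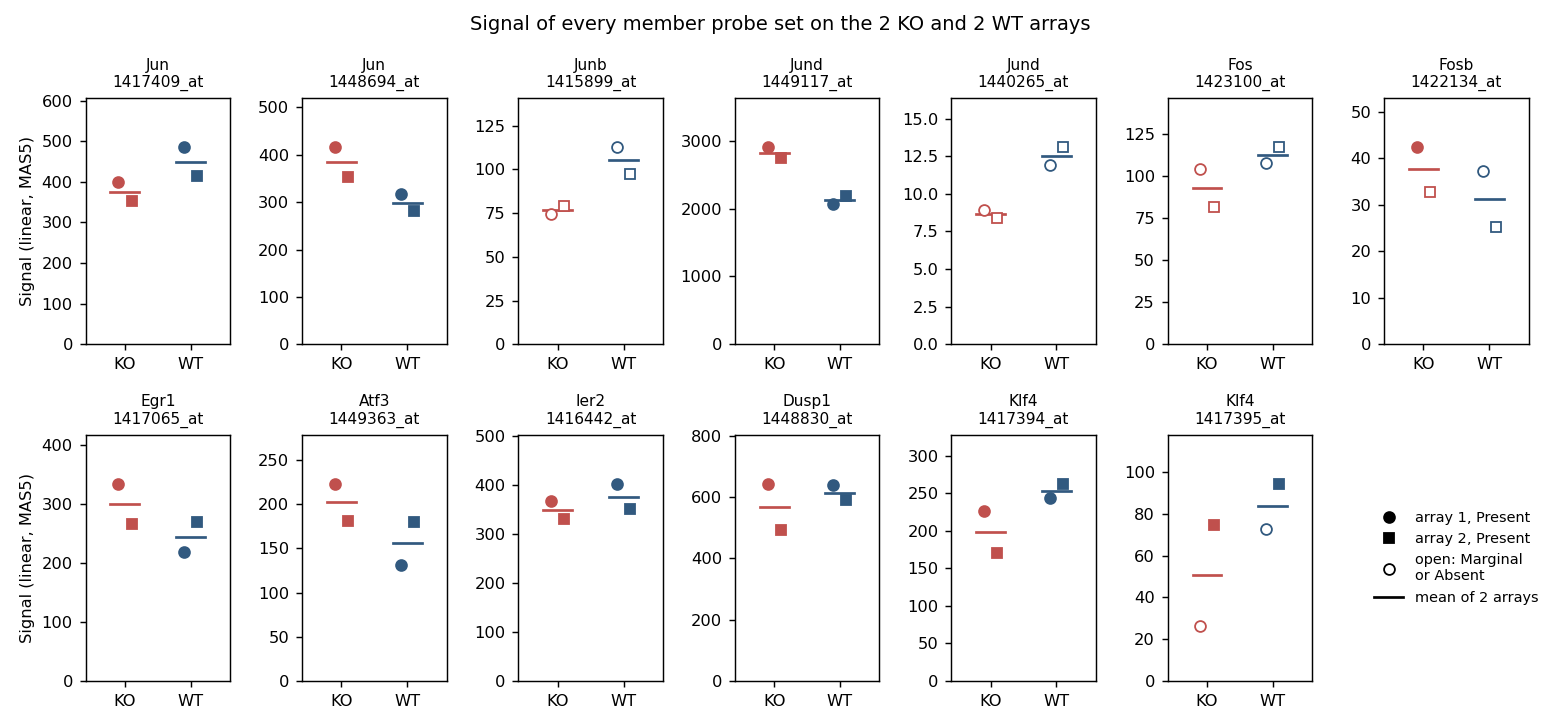
Signal (linear MAS5 units, each panel from 0 on its own axis) of the 13 probe sets of the 10 genes on the 2 KO arrays, in red at left, and the 2 WT arrays, in blue at right; circles are array 1, squares array 2, open symbols Marginal or Absent calls and bars the mean. Jund at 1449117_at separates the groups widely for its spread, with 2908 and 2744 in KO and 2064 and 2192 in WT, while Fos and Junb have no filled symbol.

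Among the transcripts of the Jun family, Jund came nearest to a difference. Jund, the broadly expressed Jun family member that depends least on acute stimulation, had signals of 2908 and 2744 in KO and 2064 and 2192 in WT at 1449117_at. Both KO arrays lay above both WT arrays, and the pools of each genotype lay close together, with log2 gaps of 0.084 in KO and 0.087 in WT. The KO mean was 2826 ± 116 and the WT mean 2128 ± 91.0 (SD, n = 2 arrays each), a log2 difference of 0.41 ± 0.098 (moderated SE, 95% interval 0.20 to 0.62) or 1.33-fold, with adjusted p = 0.0629 in limma. A difference of that size or larger in either direction was seen at 17.3% of all tested probe sets. The sole alternative in which it passed was the fit with the replicate number as a block (adjusted p = 0.0233), and over all 14 alternatives the adjusted p ranged between 0.0233 and 0.394. The second Jund probe set, 1440265_at, read 8.9 and 8.4 in KO and 11.9 and 13.1 in WT, Absent on all 4 arrays, and gives no fold.

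The 2 probe sets of Jun, the founding member of AP-1, pointed in opposite directions. At 1417409_at Jun read 398.6 and 353.3 in KO and 485.5 and 414.9 in WT. At 1448694_at it read 416.1 and 352.1 in KO and 316.4 and 281.8 in WT. Both were Present on every array, and at neither did the groups overlap, with KO below WT at the first and above WT at the second. The log2 differences were -0.26 ± 0.14 (95% interval -0.57 to 0.053, adjusted p = 0.409 in limma) and 0.36 ± 0.15 (0.032 to 0.68, adjusted p = 0.281 in limma), so neither passed. With 1 array left out the first ranged between -0.37 and -0.14 and the second between 0.24 and 0.48. The deposited signal log ratio, which compares each array with a baseline array probe by probe, was 6.9 and 6.9 in KO and 7.0 and 6.8 in WT at the first probe set, a difference of 0. At the second it was 3.3 and 3.1 in KO and 2.9 and 3.0 in WT. No direction can be given for Jun as a gene from these probe sets.

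Junb, a Jun relative that serum and stress induce, was Absent on all 4 arrays at its probe set 1415899_at, with signals of 74.2 and 78.8 in KO and 112.7 and 97.6 in WT. The KO signals lay below the WT signals, but its detection p-values of 0.0806 to 0.246 gave no Present call on any array, so no fold is given.

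The signals of Fos and Fosb were at or below the limit of detection. Fos, the classical immediate early gene, read 104.2 and 81.6 in KO and 107.6 and 117.0 in WT at 1423100_at, and was Absent on 3 arrays and Marginal on WT array 2. Both WT signals lay above both KO signals by a small margin, at detection p-values between 0.0562 and 0.219. Fosb, its close relative, read 42.4 and 32.8 in KO and 37.2 and 25.2 in WT at 1422134_at, with a Present call on KO array 1 alone and overlapping groups. The platform annotation names 1 probe set for each of Fos, Fosb and Junb, so these genes have no second reading here. The limit is on detection by these probe sets, and it does not show that the transcripts were missing.

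Egr1 and Atf3, stress-responsive factors, had higher means in KO, with wide gaps between pools. Egr1 read 334.7 and 267.1 in KO and 218.8 and 269.5 in WT at 1417065_at, and the groups overlapped, since WT array 2 lay just above KO array 2. Its log2 difference was 0.30 ± 0.17 (95% interval -0.070 to 0.67, adjusted p = 0.419 in limma), against log2 gaps of 0.33 between the KO pools and 0.30 between the WT pools. Without KO array 1 the difference was 0.14 and without WT array 1 it was 0.15. In the signal log ratio the 2 groups of Egr1 did not overlap, at -2.4 and -2.1 in KO and -2.7 and -2.7 in WT (difference 0.45, adjusted p = 0.368 in limma).

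Atf3 read 223.1 and 181.5 in KO and 131.4 and 180.3 in WT at 1449363_at. KO array 2 and WT array 2 were nearly equal, and the groups were set apart by a margin of about 1 signal unit. The log2 difference was 0.39 ± 0.20 (95% interval -0.044 to 0.82, adjusted p = 0.376 in limma), smaller than the gap of 0.46 between the 2 WT pools, and it was 0.16 without WT array 1. Atf3 had the highest signal on KO array 1, then KO array 2, WT array 2 and WT array 1, the same order as the 3' to 5' ratio of actin on these arrays (2.75, 2.42, 2.32 and 1.85), whose part was not tested.

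Ier2 and Dusp1 had overlapping groups. Ier2 read 366.9 and 330.2 in KO and 402.6 and 350.7 in WT at 1416442_at, a log2 difference of -0.11 ± 0.15 (95% interval -0.42 to 0.20, adjusted p = 0.759 in limma), and between -0.21 and -0.011 with 1 array left out. Dusp1 read 643.5 and 492.1 in KO and 639.3 and 590.7 in WT at 1448830_at, so that the highest and the lowest of its 4 signals were both in KO. Its log2 difference was -0.13 ± 0.15 (95% interval -0.44 to 0.19, adjusted p = 0.715 in limma), its KO gap of 0.39 was 3.39 times its WT gap of 0.11, and the sign turned to 0.066 without KO array 2. In the signal log ratio Dusp1 was -1.5 and -1.6 in KO and -1.2 and -1.2 in WT, a difference of -0.35 with adjusted p = 0.353 in limma.

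Klf4, a factor of growth arrest and of vascular cells, read 226.7 and 171.2 in KO and 244.0 and 262.8 in WT at 1417394_at. Both KO arrays lay below both WT arrays, with a log2 difference of -0.36 ± 0.18 (95% interval -0.74 to 0.019, adjusted p = 0.349 in limma) and a KO gap of 0.41. Without KO array 2 the difference was -0.16. At the dimmer 1417395_at Klf4 read 26.4 and 74.6 in KO and 72.8 and 94.3 in WT, Present on array 2 of each genotype alone. The KO signals were the lowest and the second highest of the 4, and since KO array 1 was Absent and the probe set was not tested, no fold is given.

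**Figure D2:**
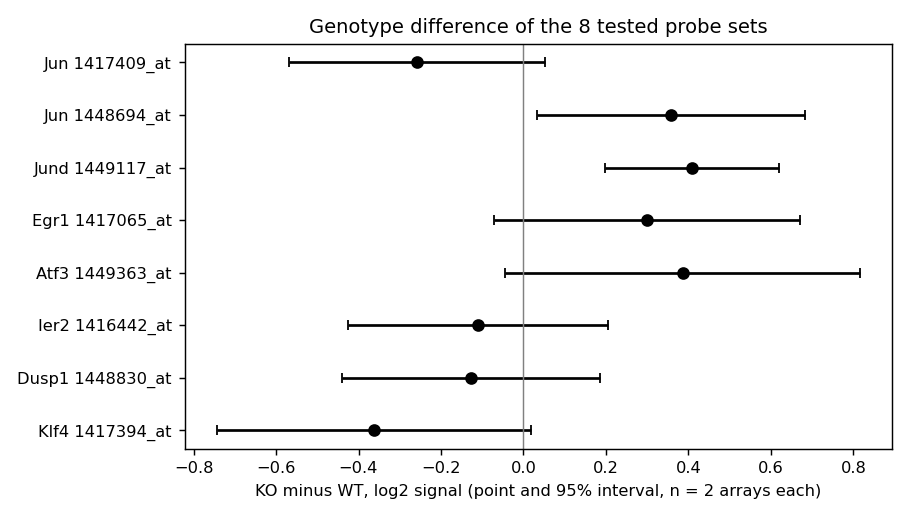
KO minus WT on the log2 signal scale for the 8 tested probe sets (points) with the 95% interval of the limma fit (bars), 2 arrays in each group. The interval of Jund, 0.20 to 0.62, is the narrowest; Jun has 1 probe set on each side of 0.

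Over the 8 tested probe sets, the groups did not overlap at 5, with KO above WT at 3 and below at 2. Across all tested probe sets 47.5% did not overlap, 25% with KO above and 22.5% with KO below, so the members' count lies near that of the whole array. The difference between genotypes was larger than both within-genotype gaps at 3 of the 8 (both Jun probe sets and Jund), against 33.6% of all tested probe sets. The median absolute difference was 0.33 for the 8 probe sets and 0.19 for all tested.

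The pools of 1 genotype also differed from each other at these probe sets. Over the 8 tested probe sets the log2 gap between the 2 KO pools ranged between 0.084 and 0.41 with a median of 0.27, and the gap between the 2 WT pools between 0.087 and 0.46 with a median of 0.18. Across all tested probe sets the median gaps were 0.19 in KO and 0.16 in WT. Since noise falls with brightness, each probe set was also set beside all tested probe sets whose mean log2 signal lay within 0.5 of its own. The member's gap was above the median gap of those neighbours at 6 of 8 in KO and at 6 of 8 in WT, and Jund was below it in both.

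At the tested member probe sets the KO pools differed in 1 direction. All 8 read higher on KO array 1 than on KO array 2, between 1.06-fold for Jund and 1.32-fold for Klf4, whereas 48.4% of all tested probe sets did. Of all 13 member probe sets, 11 were higher on KO array 1. The exceptions, neither of them tested, were Junb (74.2 against 78.8) and Klf4 at 1417395_at (26.4 against 74.6). In WT, array 1 was higher at 4 of the 8 and array 2 at the other 4, with 49.5% of all tested probe sets higher on array 1. The WT pools were furthest apart at Atf3 and Egr1, where array 2 was 1.37-fold and 1.23-fold higher. The KO pattern was seen after the values were known and rests on the MAS5 signal: in the signal log ratio, 5 of the 8 were higher on KO array 1, 2 were equal and Egr1 was lower. KO array 1 also had the higher 3' to 5' ratios of actin (2.75 against 2.42 on KO array 2) and Gapdh (1.18 against 1.01), whose part was not tested. Among 26 other immediate early genes tested, 15 were higher on KO array 1, with a median of 0.029 on the log2 scale.

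**Figure D3:**
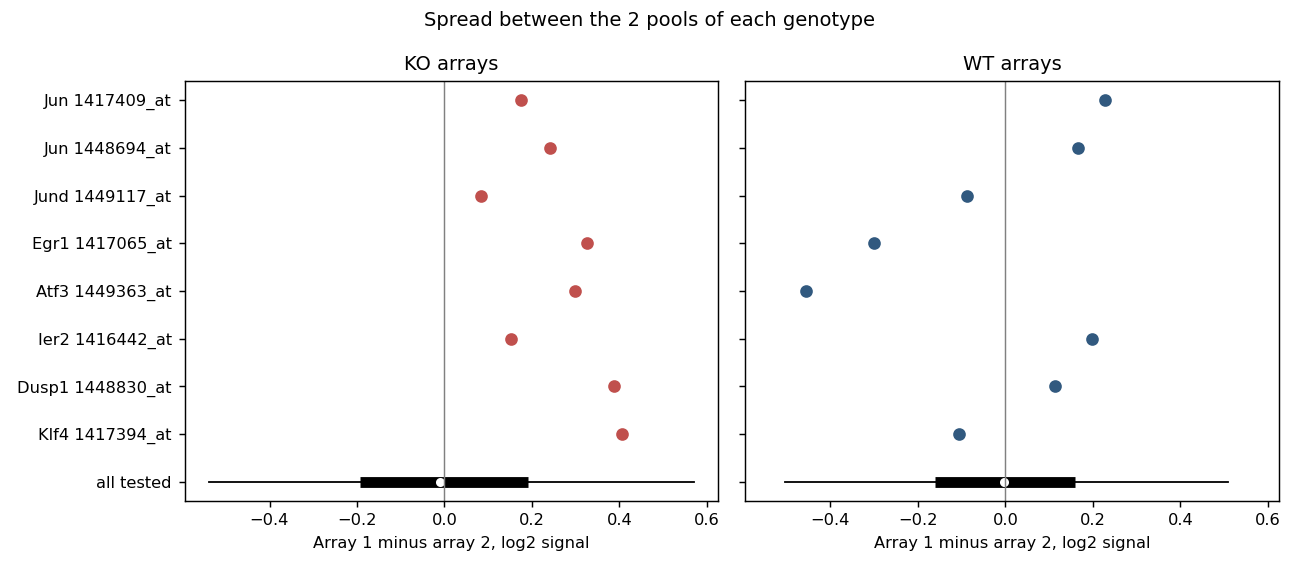
Array 1 minus array 2 on the log2 signal scale for the 8 tested probe sets in KO (left) and WT (right); the bottom row shows all 19065 tested probe sets (white dot median, thick bar middle 50%, thin line 5% to 95%). All 8 points lie right of 0 in KO, and 4 lie on each side in WT.

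The genes whose 4 signals ran closest to those of Atf3, the tested member with the largest range (0.76 on the log2 scale), were Bet1l, Tada1, Zfp451, Ttpal and Ulk2. After centring each probe set on its own mean, their log2 signals differed from those of Atf3 by 0.019 to 0.034 on average over the 4 arrays. Bet1l, a protein of vesicle fusion, read 109.7 and 93.0 in KO and 65.1 and 89.5 in WT at 1422980_a_at. The search ran over 16661 probe sets with 4 values each, so close matches are easily found.

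Related genes of the pathway, each counted at its brightest probe set tested, showed 1 or no call per list, and no dimmer probe set of these lists passed. Of 22 partners of AP-1 in the zipper family, 15 were tested and 0 passed in limma, with 2 higher and 2 lower at unadjusted p under 0.05. Of all tested probe sets, 15.5% had such a p in either direction. Cebpb, a zipper factor of acute responses, read 112.1 and 123.7 in KO and 229.7 and 151.3 in WT (-0.66 ± 0.22, adjusted p = 0.168 in limma). Atf6b, a relative of the stress sensor Atf6, stood at -0.68 ± 0.22, and Atf4, the factor of the integrated stress response, at 0.38 ± 0.14 with 753 and 1002 in KO and 655 and 682 in WT. Its second probe set stood at 0.029. Creb1, which binds the cyclic AMP element, stood at 0.31 ± 0.14 at its brightest probe set. Its dimmer tested probe sets stood at 0.32 (1452901_at) and -0.27 (1423402_at). Fosl1, a Fos relative, was not tested, with no Present call on any array, and Fosl2 stood at -0.12.

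Of 36 other immediate early genes, 26 were tested and 1 passed, against 0.96% of all tested probe sets lower in KO. Ier5l, an immediate early response gene, read 121.9 and 81.8 in KO and 202.8 and 227.8 in WT at 1419066_at (-1.11 ± 0.21, adjusted p = 0.0206 in limma). Its other tested probe set, 1455881_at, read 89.7 and 94.6 in KO and 83.4 and 72.5 in WT, in the opposite direction, and the call was lost without KO array 2 (adjusted p = 0.0780), without WT array 2 (0.0664), without a variance trend (0.208), without the filter on detection (0.260) and in the signal log ratio (0.382, difference -0.30). Ccn1, a secreted matricellular protein, read 252.4 and 247.9 in KO and 361.9 and 356.2 in WT at 1416039_x_at and did not pass (-0.52 ± 0.15, adjusted p = 0.107 in limma), with -0.13 at 1438133_a_at. Zfp36l2, which destabilises messenger RNAs, stood at 0.45 ± 0.14, and Klf15, a factor of cardiac metabolism, at 0.61 ± 0.20 (adjusted p = 0.136 and 0.173 in limma). Egr2, Egr3, Egr4, Nr4a3, Ptgs2, Arc, Gadd45a, Csrnp1, Trib1 and Plk3 were not Present on both arrays of either genotype. The list's median difference was 0.074.

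The kinases and factors that act before the immediate early genes had 1 call among 20 tested, against 0.96% of all tested probe sets lower in KO. Mapkapk2, the kinase that p38 activates to stabilise short-lived messenger RNAs, fell to 656.3 and 639.8 in KO, against 1081 and 950.2 in WT at 1426648_at (-0.65 ± 0.12, 1.56-fold lower, adjusted p = 0.0165 in limma). Its KO pools lay close together, with a gap of 0.037. The WT gap was 0.19, against a median of 0.16 for all tested probe sets, and both KO signals lay well below both WT signals. The call was lost without WT array 1 (adjusted p = 0.191), without a variance trend (0.235), without the filter on detection (0.166) and in the signal log ratio (0.353, difference -0.75). Mrtfa, a cofactor of serum response factor, stood at -0.45 ± 0.20, the kinase Mapk10 at -0.68 ± 0.30 and Map2k2 at 0.32 ± 0.15, none past the threshold. Srf itself had differences of 0.090 at 1418255_s_at and -0.35 at the dimmer 1418256_at, neither past the threshold.

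Among 8 tested phosphatases of the Dusp1 family, 0 passed in limma and 0 had an unadjusted p under 0.05. Dusp3 stood at 0.21 ± 0.12, Dusp4 at 0.47 ± 0.27, Dusp16 at 0.26 ± 0.18 and Dusp8 at -0.35 ± 0.33. Dusp4 was Absent on both WT arrays and Dusp8 on both KO arrays, so each entered the test through its brighter genotype alone. Of 10 heat shock genes that tissue handling can induce, 0 passed in limma, 1 had an unadjusted p under 0.05, and 8 had a positive difference, with a median of 0.14 on the log2 scale. Across all 10184 genes tested, 5668 had a positive difference and the median was 0.035. An unadjusted p under 0.05 was seen at 15.5% of all tested probe sets. Dnaja1, a chaperone partner of Hsp70, read 1159 and 1502 in KO and 877.8 and 936.0 in WT (0.54 ± 0.13, adjusted p = 0.0671 in limma). Hsph1 stood at 0.32 ± 0.16, Dnajb1 at 0.28 ± 0.14 and Hspa1b at 0.37 ± 0.20, the last sharing nearly all of its sequence with Hspa1a, so its signal may hold both. On KO array 1, where the 8 tested member probe sets were higher, Dnaja1, Hsph1 and Dnajb1 were lower than on KO array 2 at their brightest probe sets, but each had a dimmer probe set that was higher there. At the brightest probe set, 4 of the 10 heat shock genes (Hspa1b, Hspb1, Hsp90aa1 and Hmox1) were higher on KO array 1. The dimmer Dnajb1 probe set, 1416756_at, read 236.5 and 231.7 in KO and 307.2 and 346.1 in WT, the opposite direction to its brightest.

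**Figure D4:**
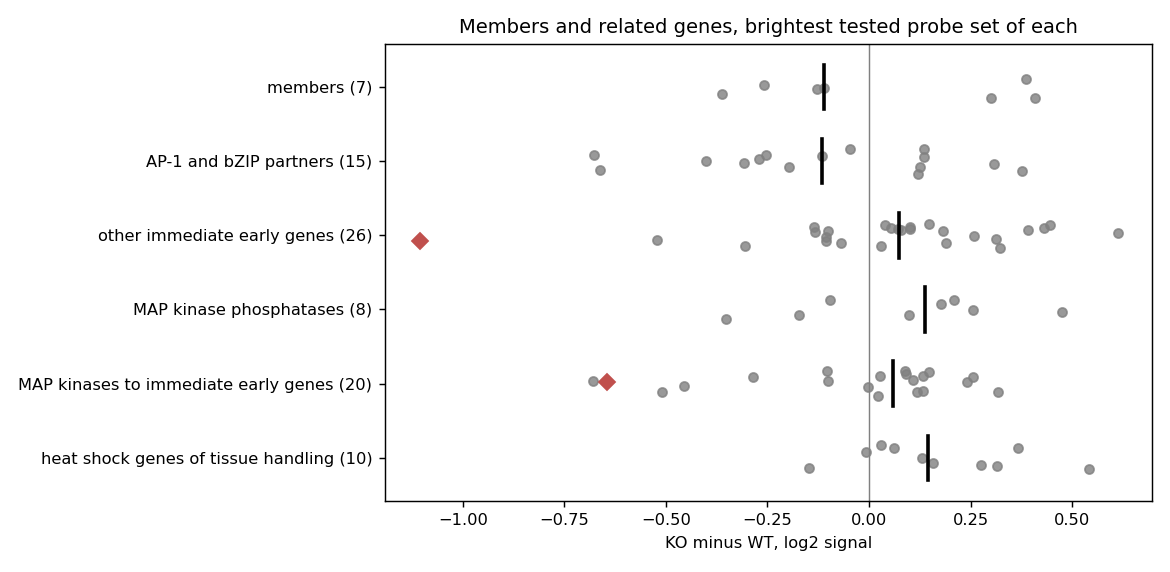
KO minus WT on the log2 signal scale for 1 probe set per gene (the brightest tested) in the member list and in 5 related lists (number tested in brackets); red diamonds passed an adjusted p of 0.05 in limma and black bars are medians. The 2 diamonds are Ier5l at -1.11 and Mapkapk2 at -0.65, and no member is among them.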

How the data were processed

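Signals of 4 arrays were used as deposited. Per the submitters' processing notes and the file headers, the authors computed each probe set's signal intensity and detection p-value with MAS5 (no version is stated). The authors' signal log ratio, a log2 value against an unnamed baseline array, served as an alternative. The authors' signals had the same 2%-trimmed mean, 150, on all arrays, and the deposited table of the series held the same values. After 64 controls were left out, log2 signals (4 zeros set to 0.1) of 19065 probe sets Present on both KO or both WT arrays were fitted with limma 3.58.1 (variance trend, genotype as sole factor) in R 4.3.3. P-values are two-sided, Benjamini-Hochberg adjusted over all tested. Names came from the platform annotation and a GRCm38.p6 gene table. In simulated arrays with 19065 probe sets, the fit recovered 81% of 100 changes of 1 log2 unit and 92% of 100 changes of 2, with 9 false calls. The simulated noise was normal and followed the trend on mean signal that the fit assumes. Changes as small as those of the members were not simulated, so recovery at their size is not known. The number of arrays limits the precision.

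Named are all members, in each related list the genes past the threshold and up to 4 with the smallest p, the 5 closest to Atf3 and Hdac2. Xist, Alas2, Pdgfra, Fosl1, Fosl2, Srf and the 4 heat shock genes higher on KO array 1 were named after their values were seen. So were the dimmer Myh6, Tnnt2 and Hbb-y probe sets and the genes not tested. Members and lists were chosen with earlier results of these data known. Alternatives covered scaling, offset, detection filter, variance model, signal log ratio, replicate block and each array left out.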

Additional observations from a re-analysis of the deposited data

How the results depend on the processing

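For the 8 probe sets, 110 of 112 combinations with an alternative left the direction unreversed and the side of the threshold as it was. The exceptions were Jund, which passed with the replicate block (0.41, adjusted p = 0.0233), so that 1 member passed there and 0 under every other alternative, any tested probe set of a gene included, and Dusp1, which turned to 0.066 without KO replicate 2. The Jun 1417409_at difference was 0 in the signal log ratio. The alternatives of detection filter, variance model and replicate block refit the same log2 signals, so no difference could change there. Where calls over the whole array also fell, as given below, a member staying short of the threshold shows little. The arrays numbered alike did not deviate together (r = -0.011 over 19065 probe sets), and the labels do not say that a number marks a shared litter or day, so the block is not a pairing known from the design. Over all tested probe sets the 256 calls became 721 with the replicate block, 37 without a detection filter, 23 without a variance trend and 1 in the signal log ratio, and ranged between 163 (without WT replicate 1) and 650 (without KO replicate 1). The cause of these moves was not tested. With an array left out, the difference ranged over 0.37 to 0.45 for Jund, -0.37 to -0.14 and 0.24 to 0.48 for Jun (1417409_at and 1448694_at), 0.14 to 0.46 for Egr1, 0.16 to 0.61 for Atf3, -0.21 to -0.011 for Ier2, -0.32 to 0.066 for Dusp1 and -0.56 to -0.16 for Klf4. The 8 of 8 higher on KO array 1 became 5 in the signal log ratio, an alternative chosen after seeing the data, and stayed 8 under the other scalings and offsets. With 2 arrays per group, differences inside intervals as wide as those of Egr1 and Atf3 are not detectable.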
